A study of Homo sapiens with 6 samples.

Results

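The genes described here are 10 components of the unfolded protein response and the integrated stress response: ERN1, XBP1, ATF6, HERPUD1, EIF2AK3, ATF4, DDIT3, TRIB3, PPP1R15A and PPP1R15B. They were picked by name, and every row of the deposited m6A peak lists that carries 1 of these symbols was taken. That gave 45 peaks out of 41729, and 10 genes out of 10785 with a peak in any list. N6-methyladenosine (m6A) is a methyl mark on adenosines inside messenger RNA, and the lists come from U2OS cells, a line from a human bone osteosarcoma that the labels give as genotype WT and as epithelia cells. Each condition is represented by 1 m6A-IP library (fragments of cytoplasmic RNA pulled down with an anti-m6A antibody) and 1 input library, 6 in all. The conditions are DF2 siRNA 1, DF2 siRNA 2 and control siRNA. Both DF2 siRNAs aim at YTHDF2, a reader protein of the mark that speeds the breakdown of methylated mRNA. The processed data are 3 peak lists, 1 for each condition, and their names say that r1 and r2 were merged. Values therefore carry no SD, and differences between conditions could not be tested against replicate error. The lists hold no RNA level, so neither the extent of the YTHDF2 knockdown nor the identity of the cells can be checked in them.

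When unfolded proteins gather in the endoplasmic reticulum (ER), 3 sensors in its membrane respond: IRE1 (gene ERN1), PERK (gene EIF2AK3) and ATF6. IRE1 removes a short intron from XBP1 mRNA in the cytoplasm, which yields an active transcription factor, and ATF6 is cut by proteases of the Golgi to release another. PERK and related kinases phosphorylate the initiation factor eIF2alpha, which slows translation in general and, through upstream reading frames in the ATF4 leader, favours translation of ATF4. ATF4 and its partner DDIT3 (CHOP) raise further stress genes, and PPP1R15A and PPP1R15B bring a phosphatase back to eIF2alpha.

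All 10 genes carried an m6A peak with siRNA 1, 9 with siRNA 2 and 10 in control. Of all 10785 genes with a peak in any list, 8368 had one with siRNA 1, 8559 with siRNA 2 and 9553 in control. The gene without a siRNA 2 peak was XBP1. Having a peak in all 3 lists was therefore the state of 9 of 10 of these genes, or 90.0% (95% exact binomial interval 55.5 to 99.7), beside 65.4% of all genes with a peak in any list. The interval includes the share over all genes, and it covers counting error only. The siRNA 1 list held 17 of the peaks, the siRNA 2 list 14 and the control list 14, which is 1.70, 1.56 and 1.40 peaks per gene with a peak, beside 1.57, 1.56 and 1.60 over all genes.

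Most of these genes had a peak in the upper part of each list. The authors give each peak a score, a whole number that neither labels nor headers define, and peaks were ranked by it within their own list. The strongest peak of a gene is the one with its highest score, and a percentile of 90 means that 90% of the peaks of that list scored lower, with tied peaks placed at the middle of their tie. The median percentile of the strongest peaks of these genes was 83.5 with siRNA 1, 86.7 with siRNA 2 and 91.1 in control. Over all genes those medians were 59.5, 58.9 and 60.1. In each of the 3 lists 8 of these genes had their strongest peak in the upper 50% of all peaks. That is out of 10 with siRNA 1, 9 with siRNA 2 and 10 in control that had a peak. The medians over all genes also lie above 50, so most genes with a peak share that state, and their exact share was not computed. Because the lists differ in length and in the spread of their scores, percentiles from different lists stand side by side here as a description and measure no change.

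**Figure D1:**
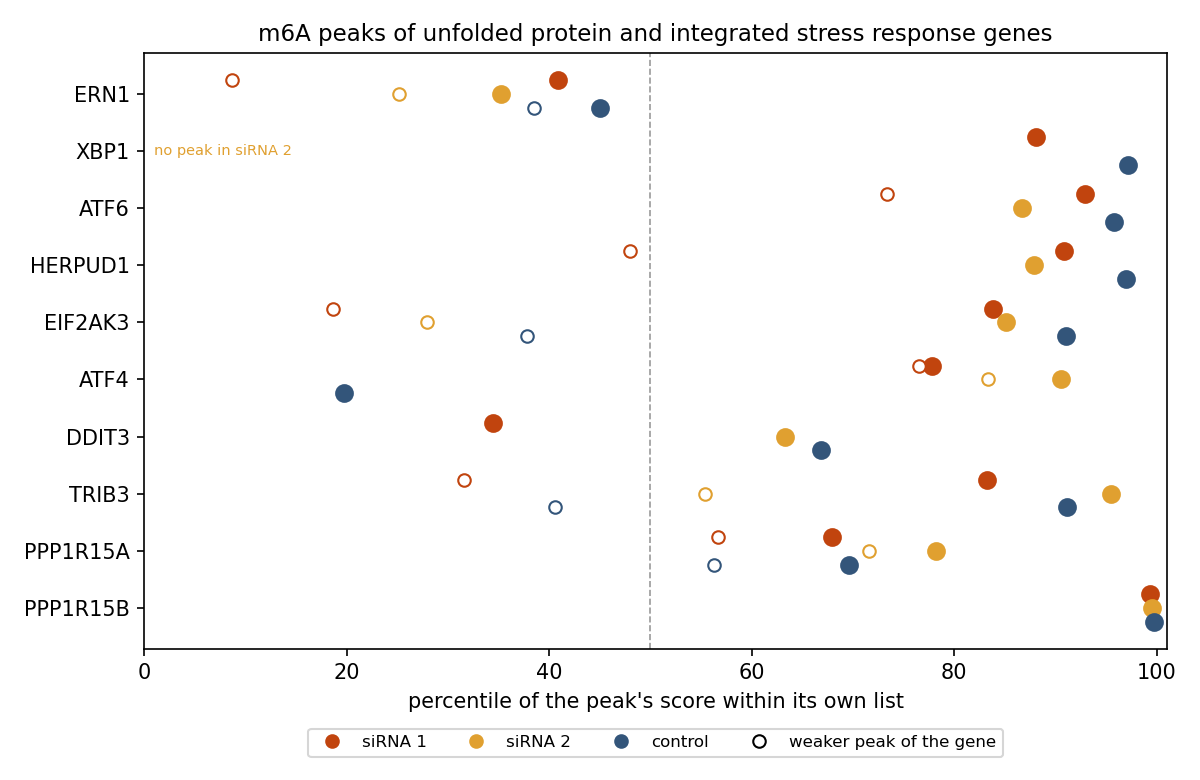
Percentile of the score of each peak within its own list (x axis, percent) for the 10 genes, with siRNA 1 above siRNA 2 above control in each row. Filled points are the strongest peak of a gene and open points its weaker peaks. The dashed line marks percentile 50. PPP1R15B lies at 99.3, 99.5 and 99.7, XBP1 has no siRNA 2 point, and ATF4 lies at 77.8 and 90.5 with the siRNAs and, at another place in the gene, at 19.7 in control.

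ERN1 (IRE1), the kinase and RNase that splices XBP1, had 2 peaks on the minus strand of chromosome 17 in each list, all of them in the lower 50% by score. The peak at 64043406 to 64044864 (hg38, as are all positions here), near the 3′ end, covered the same 800 bases in all 3 lists, with the authors' fold enrichment at 17.9 with siRNA 1, 18.8 with siRNA 2 and 38.1 in control. The other ended at 64129819 in every list and covered 800 bases with each siRNA and 1000 in control. Its fold was 5.73 with siRNA 1, 31.3 with siRNA 2 and 27.5 in control. The authors annotate this peak as coding sequence, stop codon and 3′ UTR, yet it starts only 325 bases after the RefSeq start of ERN1, a gene of 91003 bases. The transcript behind that annotation was not identified here. Score and fold rank these peaks differently: the strongest ERN1 peaks stood at score percentiles 40.9, 35.3 and 45.0 and at fold percentiles 57.3, 71.1 and 77.3. The strongest was the peak near the 3′ end with siRNA 1 and in control, and the one near the gene start with siRNA 2. Those percentiles thus compare different peaks.

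EIF2AK3 (PERK), the eIF2alpha kinase of the ER membrane, had its strongest peak inside the coding sequence in every list, on the minus strand of chromosome 2. This peak covered 800 bases from 88570947 to 88575370 with siRNA 1, 1000 bases from 88558955 to 88575370 with siRNA 2, and 1200 bases from 88558955 to 88576677 in control. It consists of 2 joined blocks with siRNA 1, 4 with siRNA 2 and 5 in control, and the blocks of each list overlap those of the other lists. The fold was 33.7, 41.1 and 37.3 in the same order, and the percentiles were 83.8, 85.1 and 91.0. Both siRNA lists had a peak at the 5′ end, at 88627177 to 88627576 with siRNA 1 and 88627377 to 88627576 with siRNA 2. These 5′ peaks were weak, with folds of 6.30 and 8.96 and −log10 false discovery rate (FDR) values of 1.45 and 1.43. Control alone had a 3′ UTR peak, at 88556775 to 88556974, with a fold of 11.2 and a −log10 FDR of 1.82. At the 5′ end the control list has a peak on the opposite strand, from 88627539 to 88628738, which the authors give to AC062029.1. The labels do not say whether the libraries kept strand, and without strand reads of the overlapping genes cannot be told apart.

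ATF6, the sensor that is cleaved to a transcription factor, kept an identical stop codon peak in all 3 lists, with 65 bases from 161912316 to 161912380 and 535 from 161958446 to 161958980 on the plus strand of chromosome 1. Its fold was 39.9 with siRNA 1, 31.5 with siRNA 2 and 30.6 in control, at score percentiles 93.0, 86.7 and 95.8. siRNA 1 alone also had an ATF6 peak at the 5′ end. It covered 149 bases from 161766294 to 161766442 and 51 bases of a downstream block, with a fold of 11.8 and a −log10 FDR of 1.93.

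XBP1, the mRNA that IRE1 splices, had 1 peak with siRNA 1 and in control and none with siRNA 2. The peak covered the same 800 bases in both lists, 750 of them from 28794983 to 28795732 and 50 from 28796047 to 28796096 on the minus strand of chromosome 22, across coding sequence, stop codon and 3′ UTR. It stood at score percentile 88.0 with siRNA 1 and 97.2 in control, the second highest of the 10 genes in control. Its fold was lower in rank, 12.2 with siRNA 1 and 15.9 in control, at fold percentiles 41.1 and 42.1. Its −log10 FDR was 1.67 with siRNA 1 and 2.05 in control. A gene with peaks in siRNA 1 and control and none in siRNA 2 made up 3.62% of all genes with a peak, against 1 of these 10. Of the 426 control peaks that scored at least as high, that of XBP1 included, 8 or 1.88% (0.814 to 3.67) overlapped no siRNA 2 peak. Of the 14 among them with an FDR at least as high as that of XBP1, 3 overlapped none, again counting XBP1 itself. With the FDR held under 0.01 the siRNA 1 peak drops out as well, and XBP1 then has a peak in control alone.

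ATF4, the transcription factor at the centre of the integrated stress response, had peaks at different places in the 3 lists. With siRNA 1 a 5′ UTR peak on the plus strand of chromosome 22 covered 39520471 to 39520670, at percentile 76.6. With siRNA 2 the 5′ UTR peak was longer, in blocks from 39519695 to 39519801 and from 39520178 to 39520670, at percentile 83.3. In control the only ATF4 peak was a 5′ UTR peak of 200 bases, in blocks from 39519695 to 39519801 and from 39520178 to 39520270, at percentile 19.7. The control peak lies wholly before the RefSeq start of ATF4 at 39520559. Joined through the siRNA 2 peak the 3 count as 1 region, although the siRNA 1 and control peaks do not touch.

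The second ATF4 peak was found with both siRNAs and not in control. It began at 39522372 in both lists and ended at 39522571 with siRNA 1, inside coding sequence. With siRNA 2 it ran on to 39522685 and included the stop codon and 3′ UTR. By score this end of the gene held the strongest ATF4 peak in both siRNA lists, at percentile 77.8 with siRNA 1 and 90.5 with siRNA 2. Its fold was 13.7 and 16.0, at fold percentiles 46.6 and 43.2, and its −log10 FDR 2.49 and 2.23. The 5′ UTR peaks had folds of 16.2 with siRNA 1, 10.2 with siRNA 2 and 12.9 in control, at fold percentiles 53.5, 19.7 and 32.3. By fold, then, no ATF4 peak stood far above the middle of its list, and with siRNA 1 the 5′ UTR peak came out higher than the peak at the other end. Of the 1260 siRNA 2 peaks that scored at least as high, that of ATF4 included, 14 or 1.11% (0.609 to 1.86) overlapped no control peak. Of the 28 among them whose FDR was also at least as high, 10 or 35.7% (18.6 to 55.9) overlapped none, again counting ATF4 itself.

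DDIT3 (CHOP), the stress-induced factor that ATF4 raises, had 1 peak that was identical in all 3 lists. It covered 466 bases of coding sequence, stop codon and 3′ UTR from 57516588 to 57517053 on the minus strand of chromosome 12. The fold was 12.3 with siRNA 1, 33.5 with siRNA 2 and 29.3 in control. The score stood at percentile 34.5 with siRNA 1, 63.3 with siRNA 2 and 66.9 in control. DDIT3 had the lowest strongest peak of the 10 genes in the siRNA 1 list, while ERN1 was lowest with siRNA 2 and ATF4 in control.

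PPP1R15B, the constitutive partner that brings protein phosphatase 1 to eIF2alpha, had the strongest peak of the 10 genes in every list. It was a single long peak on the minus strand of chromosome 1 that by the authors' annotation reached through the coding region into both UTRs. With both siRNAs it ran from 204406014 to 204411791 and covered 2600 bases, and in control it ran from 204405214 to the same end and covered 3400 bases. The extra bases of the control peak lie at its 3′ side. Ranked by width, the peak stood at percentile 99.1 with siRNA 1, 98.9 with siRNA 2 and 99.5 in control. Its fold was 74.4 with siRNA 1, 52.1 with siRNA 2 and 53.2 in control, at fold percentiles 93.6, 86.7 and 89.0. By width and score the peak was in the top 2% of each list, and by fold somewhat lower.

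PPP1R15A (GADD34), the stress-induced counterpart of PPP1R15B on chromosome 19 (plus strand), had 2 peaks in every condition. The one at the stop codon covered the same 800 bases, 48874165 to 48874964, in all 3 lists. Its −log10 FDR was 4.62 with siRNA 1, 3.57 with siRNA 2 and 1.39 in control, and the control value lies close to the FDR of 0.05 that every deposited peak stays under. The upstream peak ended at 48873764 in every list. With siRNA 1 it began at 48873365 and lay in coding sequence alone. With siRNA 2, and likewise in control, it began at 48872592 with a separate upstream block of 60 bases and had 5′ UTR in its annotation. The strongest PPP1R15A peak was this upstream one in each list, at percentile 68.0 with siRNA 1, 78.2 with siRNA 2 and 69.6 in control.

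HERPUD1, an ER membrane protein that serves ER-associated degradation, also had a shared stop codon peak and a 5′ peak seen with siRNA 1 alone. The stop codon peak on the plus strand of chromosome 16 began at 56942221 in all 3 lists, ended at 56943508 with both siRNAs and reached 56943708 in control. The folds were 39.2 with siRNA 1, 34.9 with siRNA 2 and 44.7 in control, and the score percentiles 90.8, 87.9 and 97.0. The 5′ peak covered 344 bases from 56932048 to 56932391 and 56 bases from 56933184 to 56933239, with a fold of 13.8 and a −log10 FDR of 3.82. Among siRNA 1 peaks that scored at least as high as this HERPUD1 peak, itself included, 802 of 6902 or 11.6% overlapped no control peak. For the ATF6 peak at the 5′ end, also included in its set, this was 240 of 3522 or 6.81%. With an FDR also at least as high, those numbers were 490 of 1093 and 36 of 55.

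TRIB3, a pseudokinase induced by ATF4 and DDIT3, carried the same 2 peaks in all 3 lists, on the plus strand of chromosome 20. Its stop codon peak covered 396326 to 397125, with a fold of 41.6 with siRNA 1, 65.6 with siRNA 2 and 37.3 in control. The percentiles of that peak were 83.2, 95.5 and 91.1. The 5′ UTR peak covered 400 bases, 5 of them at 375566 to 375570 and the rest at 380617 to 381011. It scored lower, at percentiles 31.5, 55.4 and 40.6.

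**Figure D2:**
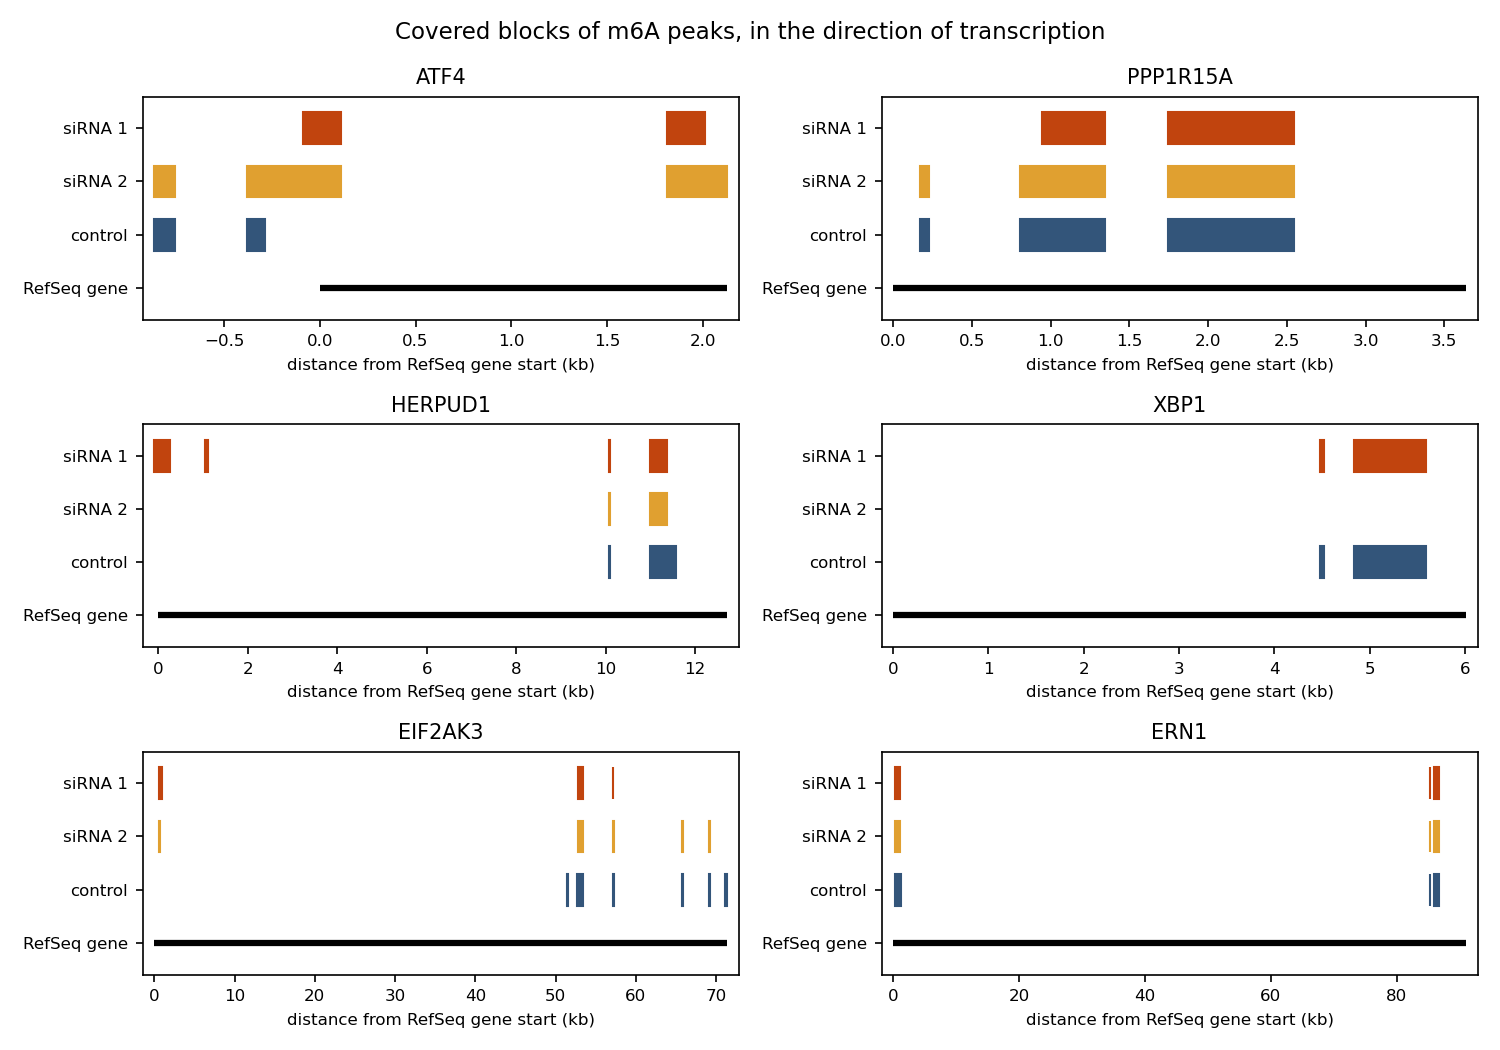
Covered blocks of the m6A peaks of 6 genes, in kilobases from the RefSeq gene start along the direction of transcription, with siRNA 1 on top, then siRNA 2 and control, and the RefSeq span as a black bar. Very short blocks are drawn at the width of a line. ATF4 shows the block near 2 kb with either siRNA and none there in control, HERPUD1 a start block with siRNA 1 alone, EIF2AK3 a start block with both siRNAs, and XBP1 no block with siRNA 2.

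In HERPUD1, ATF6, EIF2AK3 and ATF4 a siRNA peak covers an annotated transcript start that no control peak of the gene covers, so letters under these 4 could be read in part. RefSeq windows of 250 bases before to 50 bases after each annotated start (assembly GRCh38.p14) were searched on the RNA-like strand for DRACH, the 5-base consensus of m6A sites. DRACH stands for A, G or T, then A or G, then A, then C, then A, C or T. Matches were kept where all 5 bases lay under a peak of the gene, which left 1 in ATF6, 1 in HERPUD1, 1 in EIF2AK3 and 3 in ATF4. The lines below show 1 match per gene in its 25 bases of context, 5′ to 3′, with the match in capitals and written with T. They are shown because siRNA peaks, and no control peak on the same strand, cover these places. The EIF2AK3 stretch lies partly under the control peak of AC062029.1 on the opposite strand.

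HERPUD1 siRNA 1, chr16:56932145-56932169, plus strand: ccagagacgtGAACTgtcgttgcag
ATF6 siRNA 1, chr1:161766340-161766364, plus strand: cagggagaagGAACTtgtgaaatgg
EIF2AK3 siRNA 1 and siRNA 2, chr2:88627528-88627552, minus strand: gccagcctggGAACAtggagtggca
ATF4 siRNA 2, chr22:39520312-39520336, plus strand: aggaaagaacGGACTctgatcatag

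HERPUD1 and ATF6 share the letters GAACT, with the A of the site 16 and 33 bases into the annotated transcript. In EIF2AK3 and ATF4 the A of the site is at -76 and -235 from the RefSeq start used for the window, inside peaks with 5′ UTR in the authors' annotation. For EIF2AK3 that start lies inside the RefSeq gene span, whose own start is at 88628145. The ATF4 site falls in the stretch that the siRNA 2 peak covers and the siRNA 1 and control peaks leave out. DRACH is common: 49.6% of 35116 RefSeq windows hold a match in the first 50 bases of the transcript, against 2 of the 4 genes here (HERPUD1 and ATF6), and 97.2% hold one in the whole window. A match is thus a description of the letters under a peak, and which adenosine was methylated is not known from these lists.

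Peaks at the 5′ end that had no partner in control were seen in 4 of the 10 genes with siRNA 1 (ATF4, ATF6, EIF2AK3 and HERPUD1) and in 1 of the 9 with siRNA 2 (EIF2AK3). Here a 5′ UTR peak is one annotated with 5′ UTR and without stop codon or 3′ UTR. Over all genes with a peak in both lists compared, 8.68% had such a peak with siRNA 1 and 5.71% with siRNA 2. The share of these genes with siRNA 1 was 40.0% (12.2 to 73.8), and with siRNA 2 it was 11.1% (0.281 to 48.2), whose interval includes 5.71%. The siRNA 1 interval lies above 8.68%, but it is 1 of many given here, none adjusted for their number. Genes and lists were also picked with earlier results of these data known, so a difference from all genes was not tested. ATF4, 1 of the 4, does have a control 5′ UTR peak, which the siRNA 2 peak joins to the siRNA 1 peak. In the other direction a control 5′ UTR peak without a siRNA 1 partner occurred in 1 of 10 (ATF4), beside 5.84% of all genes. Without a siRNA 2 partner it occurred in 0 of 9, which allows a share of up to 33.6%, beside 4.6% of all genes. With an FDR under 0.01 the ATF6 and EIF2AK3 peaks leave the siRNA lists (FDR 0.0117 for ATF6, 0.0352 and 0.0370 for EIF2AK3), and those of ATF4 and HERPUD1 with siRNA 1 stay. The siRNA 1 count is then 2 of 9, or 22.2% (2.81 to 60.0), an interval that includes the 6.89% of all genes at that limit. The siRNA 1 and siRNA 2 comparisons share the control list, so they are not separate evidence.

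Apart from these ends, the peaks mostly lay at the same places in the 3 lists. Of the siRNA 1 peaks of the 10 genes, 12 of 17 were found in control, sharing 1 base or more on the same strand, beside 81.5% of all siRNA 1 peaks. Of the siRNA 2 peaks, 12 of 14 were found in control, beside 86.1%. Of the control peaks, 12 of 14 were found with siRNA 1, beside 67.1%, and 12 of 14 with siRNA 2, beside 73.4%. Between the siRNAs, 14 of 17 siRNA 1 peaks were found with siRNA 2, beside 83.6%, and 14 of 14 siRNA 2 peaks with siRNA 1, beside 80.5%. All 6 of these backgrounds lie within the exact intervals of the counts.

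Joining overlapping peaks gave 18 regions in the 10 genes. Of these 12 held a peak in all 3 lists, or 66.7% (41.0 to 86.7), beside 50.8% of all regions, and in 11 of the 12 each pair of lists overlapped directly, ATF4 being the exception. The other regions were 2 with siRNA 1 alone (ATF6 and HERPUD1), 2 with both siRNAs (ATF4 and EIF2AK3), 1 with siRNA 1 and control (XBP1) and 1 in control alone (EIF2AK3). The shares of all 17771 regions in these states were not computed, so whether these counts are usual is not known. In 6 of the 12 shared regions the covered bases were identical in all 3 lists (interval 21.1 to 78.9%), beside 25.4% of shared regions in general. Those were in ATF6, DDIT3, ERN1 and PPP1R15A, with 1 each, and in TRIB3, with 2.

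By the authors' annotation, peaks that include a stop codon were the most frequent kind. They made up 9 of 17 with siRNA 1, 9 of 14 with siRNA 2 and 9 of 14 in control, beside 43.5%, 43.7% and 42.9% of all peaks in those lists. In every list they include the ERN1 peak near the gene start, whose stop codon annotation was not explained here. They also include the long PPP1R15B peak, which reaches into both UTRs. All of those backgrounds lie within the intervals of these counts (27.8 to 77.0 for siRNA 1, 35.1 to 87.2 for siRNA 2 and for control). In each list the highest fold of these genes was at a stop codon peak, but so was the lowest with siRNA 1 and in control. The fold over all peaks of these genes ranged from 5.73 to 74.4 with siRNA 1, from 8.96 to 65.6 with siRNA 2 and from 10.3 to 53.2 in control. Its highest value belonged to the stop codon peak of PPP1R15B with siRNA 1 and in control and to that of TRIB3 with siRNA 2. Its lowest value belonged to the ERN1 peak near the gene start with siRNA 1 and to the PPP1R15A stop codon peak in control. In the siRNA 2 list the lowest was the EIF2AK3 peak at the 5′ end.

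**Figure D3:**
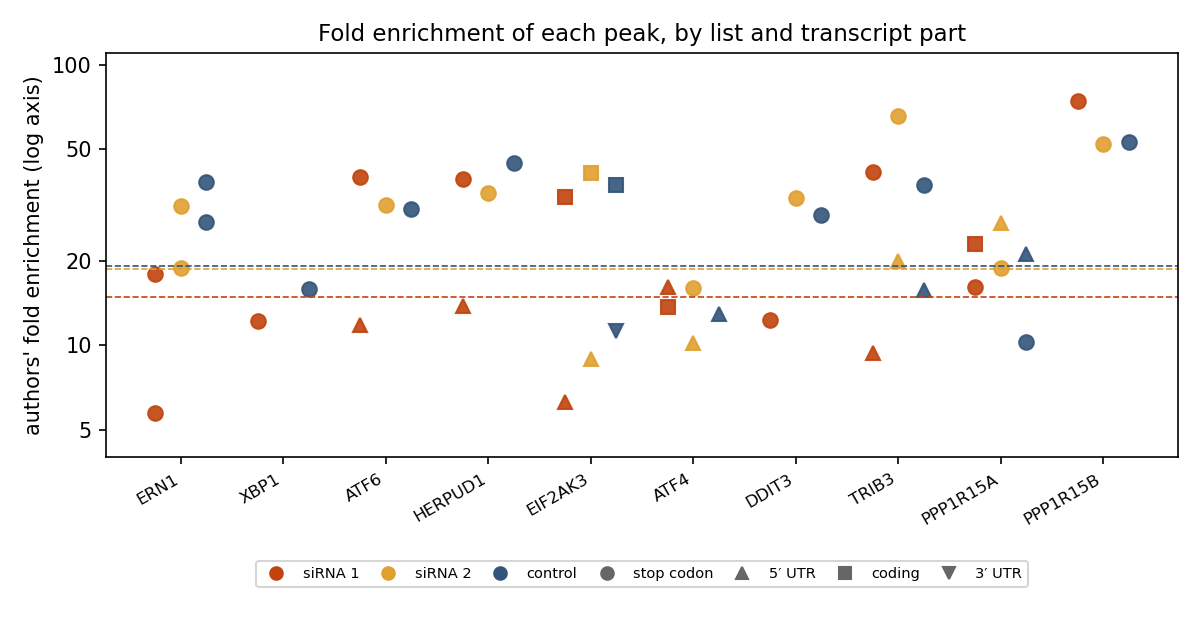
The authors' fold enrichment of every peak of the 10 genes (y axis, log scale), with siRNA 1, siRNA 2 and control from left to right for each gene. Symbols give the part of the transcript and dashed lines the median fold of all peaks of a list, 14.9, 18.7 and 19.1. The 5′ peaks of ATF6, HERPUD1 and EIF2AK3 found with the siRNAs lie at 6.30 to 13.8, below the median of their list.

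Of 87 other genes of these pathways, 60 had a peak with siRNA 1, 47 with siRNA 2 and 55 in control, and 65 had one in any list. Over all genes the numbers were 8368, 8559 and 9553 of the 10785 with a peak in any list. The 44 pathway genes with a peak in all 3 lists are 67.7% (54.9 to 78.8) of the 65 with any peak, close to the 65.4% over all genes. These genes were set out in 5 groups by role. Genes of ER stress sensing and regulated proteolysis had a peak in 7, 6 and 7 of 11. MBTPS1 and MBTPS2, the Golgi proteases that cut ATF6, had one in each list, as did CREB3L3, while CREB3L2, a related membrane-bound factor, lacked one with siRNA 2. The −log10 FDR of the CREB3L2 peak was 2.15 with siRNA 1 and 1.32 in control. The strongest MBTPS1 peak stood at percentile 86.4 with siRNA 1, 95.4 with siRNA 2 and 98.4 in control.

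The next group took in eIF2 kinases, eIF2 and eIF2B subunits, phosphatase 1 catalytic subunits and EIF2A, which is no subunit of eIF2. It had a peak in 9, 5 and 5 of its 15 genes. Of the 10 with a peak in any list, 5 had it with siRNA 1 alone, beside 5.03% of all genes, a state that none of the 10 main genes showed. They were EIF2B4 and EIF2B5, subunits of the eIF2 exchange factor, and PPP1CA, PPP1CB and PPP1CC, the catalytic subunits that PPP1R15A and PPP1R15B bring to eIF2alpha. PPP1CB and PPP1CC were added to the named genes once their values were known. The −log10 FDR of these peaks was 1.42 for EIF2B4, 1.90 for EIF2B5, 1.35 for PPP1CA, 7.55 for PPP1CB and 2.74 for PPP1CC, and with an FDR under 0.01 the count is 2 of the 7 that then have any peak, beside 5.46% of all genes. EIF2S2, the beta subunit of eIF2, lacked a siRNA 1 peak, and its −log10 FDR was 1.39 with siRNA 2 and 2.49 in control.

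Targets and partners of ATF4 and DDIT3 had a peak in 17, 16 and 18 of 24, with 14 in all 3 lists. That is 66.7% (43.0 to 85.4) of the 21 with any peak, again close to 65.4%. ERO1A (ERO1L in the files), an oxidase of the ER, had a peak with either siRNA and none in control, in the 5′ UTR at 52695501 to 52695900 with siRNA 1 and 52695701 to 52695900 with siRNA 2 on chromosome 14. The −log10 FDR was 7.43 with siRNA 1 and 1.77 with siRNA 2, and the siRNA 2 peak drops out with an FDR under 0.01. The share of all genes with a peak in both siRNA lists and none in control was not computed. PHGDH and PSAT1, enzymes of serine synthesis, had a peak in control alone, as did SLC7A11, a cystine transporter named after its values were seen. These 3 of 21 are 14.3% (3.05 to 36.3), beside 12% of all genes with a peak in control alone. The control peaks of PHGDH and PSAT1 had −log10 FDR values of 1.91 and 1.42. BCL2L11 (BIM), a cell death protein, had one with siRNA 1 alone at percentile 16.3.

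ER chaperones and folding enzymes had a peak in 15, 10 and 15 of 18. Of them 5 had one with siRNA 1 and in control and none with siRNA 2, as XBP1 did: CANX (calnexin), DNAJC10, MANF, PDIA3 and PDIA6, the last named after its values were seen. That is 5 of the 15 with a peak in any list, beside 3.62% of all genes. The control peaks behind it had −log10 FDR values of 1.35 for CANX, 1.55 for MANF, 1.49 for PDIA3, 2.71 for PDIA6 and at most 3.29 for DNAJC10. The count was 1 (DNAJC10) with an FDR under 0.01, beside 3.81% of all genes under that limit. In CANX and PDIA3 the siRNA 1 and control peaks lay at different places.

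ER-associated degradation and translocation genes had a peak in 12, 10 and 10 of 19. DERL1 and DERL2, which serve export of misfolded proteins from the ER, were in all 3 lists. OS9, a lectin of that route, and SEC63, of the translocon, were in siRNA 1 alone. These 2 of the 12 with any peak are 16.7% (2.09 to 48.4), an interval that includes the 5.03% of all genes. The −log10 FDR was 3.93 for OS9 and 1.79 for SEC63, which drops out with an FDR under 0.01. The stop codon peak of DERL2 had a fold of 150.2 with siRNA 1, 109.8 with siRNA 2 and 69.9 in control. Ranked by fold within its own list it stood at percentiles 98.9, 98.2 and 95.9. Folds from different lists, too, are a description and measure no change.

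**Figure D4:**
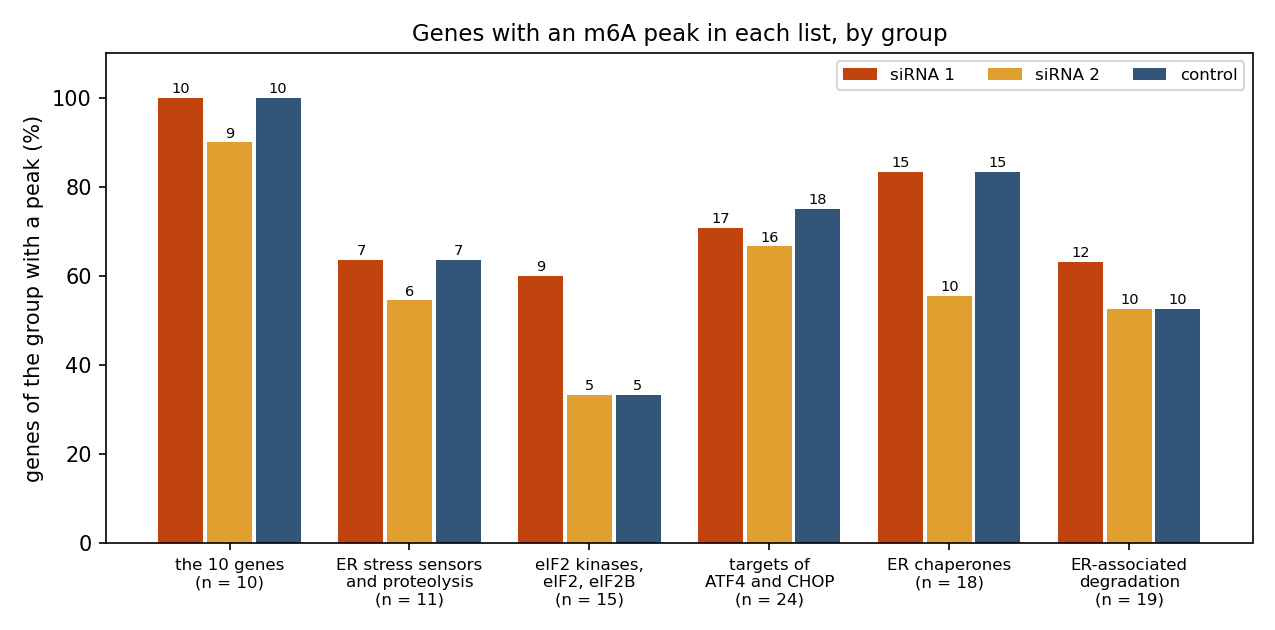
Percent of the genes of each group with a peak (y axis), with siRNA 1, siRNA 2 and control from left to right and the number of genes above each bar. The siRNA 2 bar of ER chaperones stands at 10 of 18 beside 15 and 15, and the siRNA 1 bar of the eIF2 group at 9 of 15 beside 5 and 5. Limited to peaks with an FDR under 0.01 (not drawn), the chaperones number 14, 9 and 11 and the eIF2 group 6, 3 and 4.

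Among the 44 other pathway genes with a peak in all 3 lists, the one nearest to ATF4 by the score percentiles of the strongest peaks was HSP90B1 (GRP94, an ER chaperone), at 93.8 with siRNA 1, 86.5 with siRNA 2 and 34.3 in control. The HSP90B1 control peak lies in the 3′ UTR and overlaps neither siRNA peak, and the strongest ATF4 peaks also lie at different places, so these percentiles compare different peaks. The nearest to DDIT3 was NUPR1, at 48.0, 60.1 and 62.9, and the nearest to PPP1R15A was RTCB, the ligase that joins XBP1 after splicing, at 62.5, 70.8 and 74.8. The distances over the 3 percentiles were 22.1 for ATF4, 14.4 for DDIT3 and 10.5 for PPP1R15A.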

How the data were processed

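Per the labels, an anti-m6A antibody pulled down fragments of U2OS RNA, and the submitters' processing notes name HISAT2 and hg38. No label or header names the peak caller, the annotation or how r1 and r2 were merged. For each peak the authors deposited, per the file headers, a score, a fold enrichment (ratio) and a −log10 FDR, used here as the authors' own values. The score has a median of 33 with siRNA 1, 99 with siRNA 2 and 158 in control, so it was ranked only within a list. The files give no read depth, and intervals reflect numbers of peaks or genes alone.

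Block starts were raised by 1, and block sizes on the minus strand, which run in the opposite order, were reversed. Peaks shared at least 1 base of a block on the same strand, or counted as not shared. No p-value was computed. Intervals are 95% exact (Clopper-Pearson) intervals. The overlap code, tested on simulated data, gave all of 1860 planted regions their lists. Python 3.11.15, pandas 2.3.3 and scipy 1.17.1 were used. Gene spans and windows are from RefSeq (GRCh38.p14), and 10 of 10 genes matched there. Of the 87 other pathway genes, 1 was found under an older symbol. Named were the 10 genes, up to 4 genes per group, those with a peak in some lists first and then alphabetically, and the nearest gene to ATF4, DDIT3 and PPP1R15A. The genes and lists were chosen with earlier results of these data known. Alternatives were an FDR under 0.01, equal list lengths, the top 50% by score or fold, RefSeq spans, 50% reciprocal overlap, gaps of 100 bases, and ranks by fold or over genes.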

Additional observations from a re-analysis of the deposited data

Results flagged for a closer look

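Within the RefSeq span of ATF6, on its strand, the lists hold peaks that the authors give to the gene RP11-456P18.2 and that no comparison above used. There were 2 with siRNA 1 and 2 with siRNA 2, against 1 in control, which is why they are listed here. The siRNA 1 peaks covered 161890833 to 161891032 and 161891233 to 161891632, and the siRNA 2 peaks 161890833 to 161891032 and 161891433 to 161892032. The control peak ran from 161890833 to 161892196, over all of those places. Their folds were 6.22 and 5.60 with siRNA 1, 7.53 and 5.01 with siRNA 2, and 30.6 in control.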

How the results depend on the processing

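Among the counts and median percentiles recomputed under the alternatives, 64 stayed near the reported value (within 1.5 times for a count) and 10 moved further. Of the percentiles of single genes' strongest peaks, ranked by fold or over genes, 56 moved and 2 stayed. Some moves were small (PPP1R15B in control, 99.7 against 99.5 over genes) and some large (XBP1 in control, 97.2 against 42.1 by fold). Kept to the upper 50% of scores, the genes' regions in all 3 lists numbered 7, against 12, siRNA 1 peaks found with siRNA 2 numbered 9, against 14, and siRNA 2 peaks found with siRNA 1 also 9, against 14. That setting keeps fewer peaks by construction. Genes with a siRNA 1 peak of the 5′ UTR and no control partner numbered 2 with an FDR under 0.01, against 4, an alternative chosen after seeing the data. The median percentile of the strongest peaks was 72.1, 73.5 and 72.6 (siRNA 1, siRNA 2, control) ranked by fold, and 77.5, 81.7 and 87.3 ranked over genes. Ranks over genes have their middle at 50 by construction, and the medians of the fold percentile over all genes were not computed. Neither set of percentiles compares with the medians over all genes given above for the score. In fold itself, the strongest peaks by score had medians of 28.3, 33.5 and 33.9 (siRNA 1, siRNA 2, control). Over all genes these were 19.4, 23.5 and 25.5. Genes with a peak in all 3 lists numbered 9 with an FDR under 0.01 and with equal list lengths, 8 by RefSeq span (control 9, as the ATF4 control peak lies before that span), 6 with the upper 50% of scores and 7 with the upper 50% of folds. No paired analysis was possible because each condition has 1 list. With read depth unknown, a missing peak does not show that m6A is absent.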
